A study of Mus musculus with 4 samples.

Results

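The 10 genes described here encode enzymes of the second stage of glucose breakdown and the lactate dehydrogenases, in forms used by most tissues and in forms of the testis. They were chosen by gene symbol (Ldha, Ldhb, Ldhc, Gapdh, Gapdhs, Pgk1, Pgk2, Eno1, Pgam1 and Pgam2), not by their values, and all 10 were found among the 23420 genes of the table. The libraries were made from pachytene spermatocytes of wild-type C57BL/6 mice aged 23 weeks, male germ cells in meiotic prophase, which were sorted by DNA content and then cultured for 24 h. The 2 Ctrl libraries came from cells given DMSO, the solvent, and the 2 AZ20 libraries from cells treated with AZ20 at 10 μM, which inhibits the kinase ATR. Each library held the RNA of 15000 cells, and by the study's methods the cells of a mouse were divided between the conditions. Libraries with the same replicate number were therefore taken to share a mouse, which is inferred and not stated for each library. The labels give 34 °C for the culture and the methods 32 °C. The cells were isolated before culture, so all 4 libraries describe sorted cells kept away from Sertoli cells, and untreated, uncultured cells were not analysed here.

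Glycolysis turns glucose into pyruvate. Glyceraldehyde-3-phosphate dehydrogenase (GAPDH), phosphoglycerate kinase (PGK), phosphoglycerate mutase (PGAM) and enolase act in sequence in its second stage, and lactate dehydrogenase (LDH) interconverts pyruvate and lactate. Spermatocytes are known to use lactate and pyruvate that Sertoli cells supply, whereas sperm rely on glycolysis in the tail. Germ cells use their own forms of several of these enzymes. Ldhc encodes the testis LDH subunit, Gapdhs the GAPDH of the sperm tail, and Pgk2 a PGK that arose by retroposition from Pgk1. Pgam2 encodes the PGAM form of muscle, which germ cells also express. Pgk1 lies on the X chromosome, which is silenced in pachytene by meiotic sex chromosome inactivation (MSCI), the process that depends on ATR and that the study set out to examine. Pgk2, on chromosome 17, is not subject to that silencing.

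The genes differ in structure as well as in level. On the GRCm38 build, Pgk1 spans chrX:106187100-106203699 with 11 exons in its coding transcripts, whereas Pgk2, at chr17:40207015-40208640, has 1 exon. Ldha and Ldhc are neighbours on chromosome 7, in the same orientation, with 5575 bases between them. The transcripts of the paired forms are far from identical. Pgk2 and Pgk1 matched at 79.5% of 1251 aligned bases, Ldhc and Ldha at 73.8% of 1009, Gapdhs and Gapdh at 77.1% of 620, and Pgam2 and Pgam1 at 75.4% of 773. Their upstream sequences also differ. The 250 bases before the RefSeq start (GRCm38.p6) are shown for the PGK and PGAM pairs, because these are the pairs in which the testis form held nearly all of the RNA. Each is written 5′ to 3′ on the strand of the gene, and capitals mark the dinucleotide CG.
Pgk1, chrX:106186850-106187099, plus strand: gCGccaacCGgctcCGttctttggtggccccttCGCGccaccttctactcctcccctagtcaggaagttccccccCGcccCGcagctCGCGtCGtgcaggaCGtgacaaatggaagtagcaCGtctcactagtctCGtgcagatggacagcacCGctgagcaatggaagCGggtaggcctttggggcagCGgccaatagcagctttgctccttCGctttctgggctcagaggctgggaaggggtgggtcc
Pgk2, chr17:40208610-40208859, minus strand: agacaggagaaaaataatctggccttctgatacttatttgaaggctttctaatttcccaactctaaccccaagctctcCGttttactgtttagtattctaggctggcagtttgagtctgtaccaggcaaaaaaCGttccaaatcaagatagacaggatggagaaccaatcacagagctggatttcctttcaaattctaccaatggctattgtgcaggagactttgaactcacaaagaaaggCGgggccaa
Pgam1, chr19:41911621-41911870, plus strand: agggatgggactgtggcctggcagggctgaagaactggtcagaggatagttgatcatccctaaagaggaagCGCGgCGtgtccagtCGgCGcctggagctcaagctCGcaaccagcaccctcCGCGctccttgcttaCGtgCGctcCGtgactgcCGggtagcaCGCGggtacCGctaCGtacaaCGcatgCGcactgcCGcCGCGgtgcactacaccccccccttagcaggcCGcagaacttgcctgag
Pgam2, chr11:5803797-5804046, minus strand: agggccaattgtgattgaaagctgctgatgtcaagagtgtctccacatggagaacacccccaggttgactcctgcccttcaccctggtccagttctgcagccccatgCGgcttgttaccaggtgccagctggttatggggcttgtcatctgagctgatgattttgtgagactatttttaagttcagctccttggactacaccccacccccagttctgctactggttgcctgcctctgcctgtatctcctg

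The window of Pgk1 holds 17 CG dinucleotides and that of Pgk2 holds 3. The window of Pgam1 holds 22 and that of Pgam2 holds 1. Over all 32851 upstream windows of the same length the median was 6, and 23.5% held at least as many as Pgk1. The same order was seen for the GAPDH pair, with 8 for Gapdh against 0 and 1 for the starts of Gapdhs. It was also seen for LDH, with 25 and 9 for the starts of Ldha, 14 for Ldhb, and 8 and 3 for those of Ldhc. The starts of Eno1 held 9, 21 and 19. These counts describe the sequences and were not tested.

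Levels are given in TPM (transcripts scaled to a library total of 1000000), the deposited unit, which divides the reads of a gene by its length and can therefore be compared between genes. The reads behind each TPM were recovered as whole numbers (reads below). The totals on genes were at least 13556527 and 15393398 reads for Ctrl and 19650081 and 18014539 for AZ20. Of the markers listed for pachytene spermatocytes all 10 were above 1 TPM in every library, with sums of 4936 to 6162 TPM. Summed markers of Sertoli cells (10 genes, of which Sox9, Wt1, Rhox5 and Fshr, 4 in number, were at 0 throughout) lay between 0.0984 and 1.05 TPM, those of Leydig cells (6 genes, 5 at 0 throughout) between 0.866 and 2.31 TPM, those of macrophages (5 genes, 1 at 0) between 0.659 and 1.47 TPM and those of peritubular myoid cells (5 genes, 1 at 0) between 2.18 and 4.60 TPM. Those of spermatogonia (7 genes, 3 at 0) lay between 7.99 and 20.5 TPM. Those of erythrocytes (3 genes, 2 at 0) reached 0.0385 TPM. Round spermatid markers were not near 0. Their sum over 7 genes was 371 and 151 TPM in Ctrl replicates 1 and 2 and 788 and 257 TPM in AZ20 replicates 1 and 2.

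In cultured pachytene spermatocytes LDH transcripts were mostly Ldhc. Ldhc was at 6056 and 5827 TPM in Ctrl and at 6178 and 5216 TPM in AZ20. It was the highest of the 10 genes in every library, and the groups overlapped. Ldha, which encodes the LDH subunit of muscle and most tissues, was at 369 and 349 TPM in Ctrl and at 340 and 350 TPM in AZ20. It was therefore well expressed, at about the same level in the 4 libraries. Ldhb, which encodes the heart subunit, had 10 and 0 reads (0.768 and 0 TPM) under DMSO and 0 and 2 reads (0 and 0.118 TPM) under AZ20, so its reads came mainly from Ctrl replicate 1. A count of 0 allows up to 3 reads, which is 0.202 TPM in Ctrl replicate 2 and 0.160 TPM in AZ20 replicate 1. In bulk RNA such as this, fewer cells that express a gene and less RNA per cell cannot be told apart.

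The PGAM step followed the same order. Pgam2 was at 1266 and 1388 TPM in Ctrl and at 1368 and 1025 TPM in AZ20. Pgam1, the PGAM of most tissues, was at 3.68 and 5.68 TPM in Ctrl and at 4.35 and 4.16 TPM in AZ20, on 68 to 120 reads. Pgam2 was the higher of the pair in every library, with ratios to Pgam1 of 344 and 244 in Ctrl and 314 and 247 in AZ20.

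The PGK step was filled by the retroposed gene. Pgk2 was at 120 and 73.2 TPM in Ctrl and at 114 and 77.2 TPM in AZ20, and replicate 1 was the higher in each condition. Pgk1 was at 1.82 and 0.529 TPM in Ctrl, on 33 and 11 reads, and at 2.14 and 1.73 TPM in AZ20, on 56 and 41 reads. Ctrl replicate 2 stands below the other libraries. Its 95% exact Poisson interval, which covers counting error only, ran from 0.264 to 0.947 TPM, against 1.25 to 2.55 TPM in Ctrl replicate 1. The ratio of Pgk2 to Pgk1 was 66.2 and 138 in Ctrl and 53.4 and 44.5 in AZ20.

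The GAPDH and enolase members were low. Gapdh was at 11.4 and 17.2 TPM in Ctrl and at 13.5 and 12.2 TPM in AZ20. Gapdhs was at 12.2 and 5.73 TPM in Ctrl and at 11.4 and 4.92 TPM in AZ20. Here no form held most of the RNA in every library, and Gapdhs exceeded Gapdh only in Ctrl replicate 1. Eno1, the enolase of most tissues, was not read in Ctrl (0 reads in each library) and was at 0.116 and 0.0858 TPM in AZ20, on 3 and 2 reads, at or under the 3 reads that a count of 0 allows, so no fold is given.

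**Figure D1:**
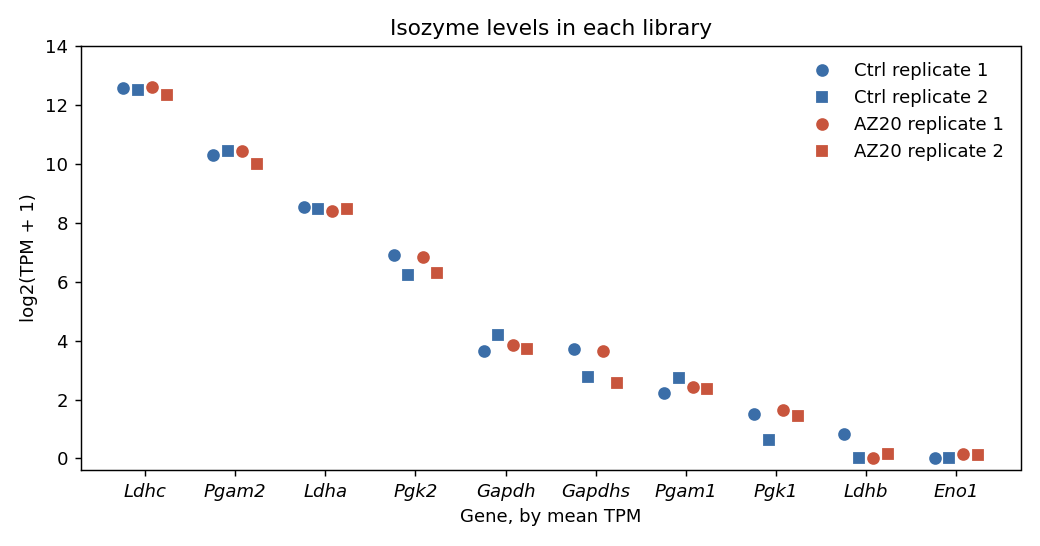
Level of each of the 10 genes, as log2(TPM + 1), in the 2 Ctrl and 2 AZ20 libraries (1 point per library, circles for replicate 1 and squares for replicate 2), with the genes ordered by mean TPM. Ldhc, Pgam2, Ldha and Pgk2 stand above the others in every library, and Ldhb and Eno1 lie near 0.

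By mean TPM over the 4 libraries the order was Ldhc (5819), Pgam2 (1262), Ldha (352), Pgk2 (96.2), Gapdh (13.6), Gapdhs (8.57), Pgam1 (4.47), Pgk1 (1.55), Ldhb (0.222) and Eno1 (0.0505). Neighbours in this order did not overlap in either condition, with these exceptions. Gapdh and Gapdhs overlapped in Ctrl, as did Pgk1 and Ldhb, and Ldhb and Eno1 overlapped in both conditions.

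The alignment bears on the levels of the somatic forms. The authors kept only reads that align to 1 place, and several somatic forms have near-identical copies elsewhere. Among GENCODE M21 transcripts, stretches of at least 150 bases that match another gene at 95% identity or more covered 88.0% of the longest coding transcript of Gapdh, with 79 other genes, of which 76 are pseudogenes. They covered 85.6% of Eno1, 76.8% of Ldhb, 68.8% of Pgk1, 55.0% of Ldha and 43.1% of Pgam1. For Ldhc, Gapdhs, Pgk2 and Pgam2 they covered 0%. Pgk1-rs7, annotated as a pseudogene, was identical to Pgk1 over 1255 bases. Reads from such stretches may have been left out, so the levels of the 6 somatic forms may be too low relative to the testis forms. How much of each difference in level this makes up was not tested. Gm5506, the name under which the table lists the Eno1 copy Eno1b, was at 0.145 and 0.0762 TPM in Ctrl and at 0.181 and 0.0894 TPM in AZ20, so few reads were assigned uniquely to either.

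The share of the testis form among the isozymes of a step was then compared between conditions. Ldhc made up 94.3% ± 0.0700 (SD, n = 2) of the summed TPM of Ldha, Ldhb and Ldhc in Ctrl and 94.3% ± 0.763 (SD, n = 2) in AZ20. Pgam2 made up 99.7% ± 0.0833 (SD, n = 2) of Pgam1 and Pgam2 in Ctrl and 99.6% ± 0.0614 (SD, n = 2) in AZ20. For both steps the difference was smaller than the spread between replicates. Gapdhs made up 51.6% and 25% of the GAPDH transcripts in Ctrl and 45.9% and 28.8% in AZ20, so that the replicates of a condition differed by more than the conditions did.

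For PGK the libraries of the conditions did not overlap. Pgk2 made up 98.5% and 99.3% of Pgk1 and Pgk2 in Ctrl and 98.2% and 97.8% in AZ20, a difference of -0.915 percentage points. The mean log2 ratio of Pgk2 to Pgk1 was 6.58 in Ctrl and 5.61 in AZ20. The two-sided exact permutation p was 0.333 for this share (1 after adjustment over the 4 steps), which is the smallest that 2 libraries against 2 can give, and 1 for the shares of Ldhc, Gapdhs and Pgam2. This test exchanges the 4 libraries freely and leaves out the pairing by replicate number. The size of the PGK difference rests on Ctrl replicate 2, in which Pgk1 had 11 reads. It was -0.530 percentage points without that library and -1.30 without Ctrl replicate 1.

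**Figure D2:**
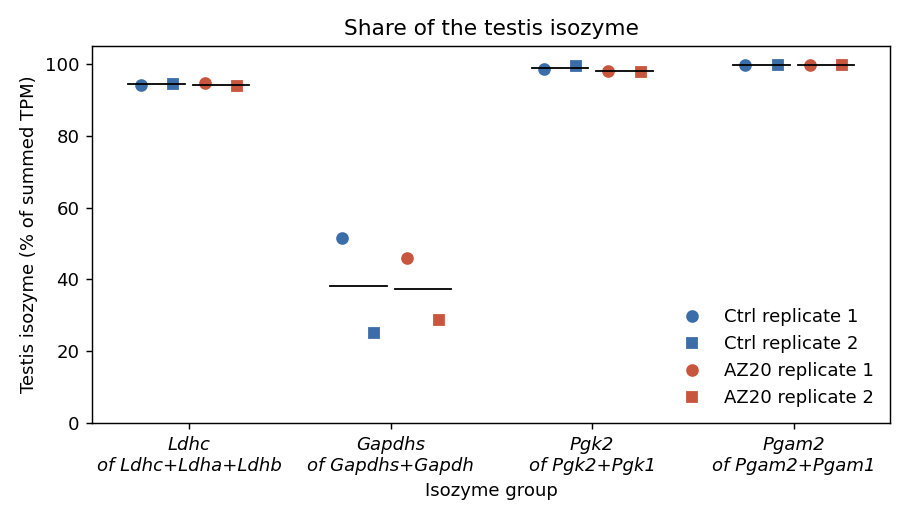
Percentage of the summed TPM of a group of isozymes that came from the testis form, for LDH, GAPDH, PGK and PGAM, in each library (points), with the mean of each condition as a black line. The shares of Ldhc, Pgk2 and Pgam2 lie above 93% in every library, and that of Gapdhs lies between 25% and 51.6%, with replicate 1 above replicate 2 in both conditions.

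Whether ATR inhibition changed any of these genes was tested with limma on log2(TPM + 1), with a call at a change of at least 2-fold and an adjusted p under 0.05. Of the 10 genes, 8 had a mean above 1 TPM in a condition and were tested, and Ldhb and Eno1 were not. Among all 10316 genes tested 2.33% were called (2.28% higher and 0.0485% lower), and among the autosomal genes 0.151%. None of the 8 members was called (0 of 8 with limma), and 0 had an unadjusted p under 0.05. With the replicate number as a block 0 of 8 were called, against 4.33% of all genes tested (4.11% higher) and 1.58% of autosomal genes. The libraries of the conditions overlapped for all 8, whereas they did not overlap for 38.1% of all genes tested and 36.2% of autosomal genes. Since 7 of the 8 members are autosomal, a count of 0 called is near the background. The count of 0 members without overlap lies below its background, and this difference was not tested. The median log2 change of the 8 members was -0.08, against 0.07 over all genes tested.

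The most abundant members had the narrowest intervals. Ldhc changed by -0.07 (95% interval -0.36 to 0.23, limma adjusted p = 0.934) and Ldha by -0.06 (-0.40 to 0.28, adjusted p = 0.955) on the log2 scale. On this scale, changes of 2-fold lie outside these intervals. That also holds for Pgam2, at -0.16 (-0.57 to 0.24, adjusted p = 0.860), Pgk2, at 0.00070 (-0.70 to 0.70, adjusted p = 1), and Gapdh, at -0.12 (-0.74 to 0.50, adjusted p = 0.943). Pgam1 changed by -0.09 (-0.77 to 0.59, adjusted p = 0.966). Its Ctrl levels were 3.68 and 5.68 TPM, at which the added 1 shrinks changes, so a 2-fold decrease in TPM was not excluded. For Gapdhs, at -0.13 (-1.21 to 0.94, adjusted p = 0.966), a 2-fold decrease lies within the interval of this fit, which leaves out the pairing. At the Ctrl levels of Gapdhs, 12.2 and 5.73 TPM, the added 1 shrinks changes. A 2-fold increase of Gapdhs in TPM was therefore not excluded either. Between libraries of the same replicate number its change was -0.08 for replicate 1 and -0.18 for replicate 2. Its standard error was 0.45 in this fit and 0.27 with the replicate block. Gapdhs shares 10.1% of its exonic bases with Tmem147os, a neighbour whose reads may count towards it.

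Most X-linked genes rose in this comparison. Pgk1, which is X-linked, was the member with the largest change, and the part of X linkage in it was not tested. Its log2 change was 0.50 (standard error 0.38, 95% interval -0.42 to 1.41), and it was not called (limma adjusted p = 0.804, and 0.660 with the replicate block). Between libraries of the same replicate number it was 0.16 for replicate 1 and 0.84 for replicate 2. Without Ctrl replicate 2 it was 0.06, and without Ctrl replicate 1 it was 0.94. Among 341 X-linked genes tested 63.3% were called higher (81.8% with the replicate block), with a median log2 change of 2.61, and 18 had a smaller change than Pgk1. Many of those genes passed the filter only through AZ20. Among the 53 X-linked genes with a mean above 1 TPM in Ctrl, as Pgk1 had, 43.4% were called higher, the median change was 1.27, and 17 had a smaller change than Pgk1. The size of the change depended on the scale. It was 0.88 with a pseudocount of 0.1 and 0.96 with 0.01, at which the median of the 53 genes was 1.94 and 2.42, and 18 of the 53 had a smaller change than Pgk1 at either. With quantile normalization the change of Pgk1 was 0.20. At a pseudocount of 1, the interval of Pgk1 includes this median and does not include the median of all X-linked genes tested. The loss of reads to copies such as Pgk1-rs7 concerns all 4 libraries, and its part in the change of Pgk1 was not tested.

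**Figure D3:**
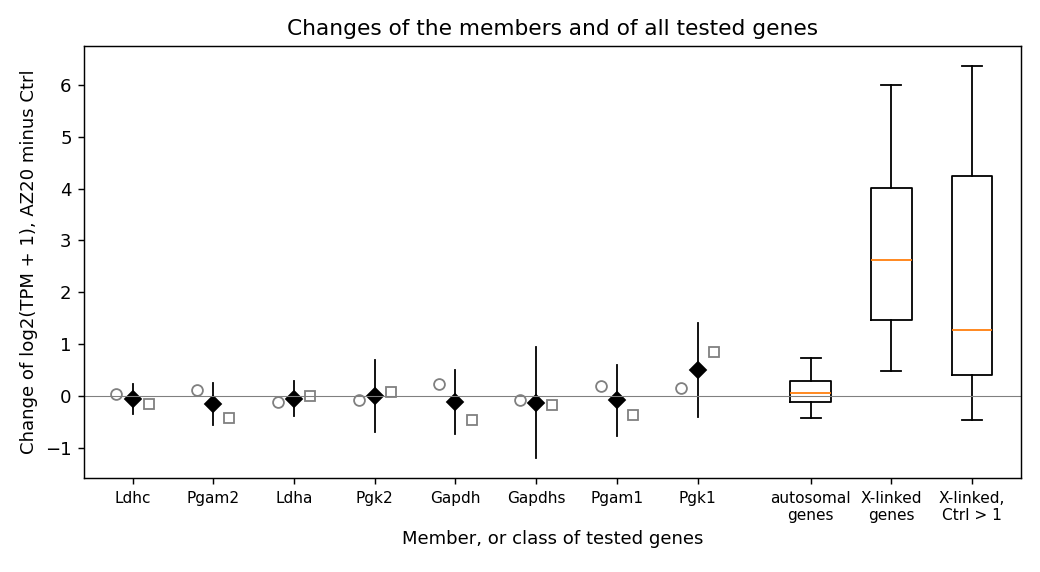
Change of log2(TPM + 1) from Ctrl to AZ20 for the 8 tested members (diamonds, with 95% limma intervals; open circles and squares for the first and second replicate pair) and for classes of tested genes (boxes from the lower to the upper quartile with the median, whiskers from the 5th to the 95th percentile). The members lie around 0 with autosomal genes, and Pgk1, at 0.50, lies below the lower quartile of X-linked genes (1.46) and just above that of X-linked genes with a Ctrl mean above 1 TPM (0.40).

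The other X-linked genes of fuel metabolism on the lists were also low. Pdha1 encodes the somatic E1 alpha subunit of pyruvate dehydrogenase, and Pdha2 is its intronless form of the testis, on chromosome 3. Pdha1 had 0 reads in all 4 libraries, and Pdha2 was at 190 and 178 TPM in Ctrl and at 210 and 193 TPM in AZ20 (log2 change 0.13, limma adjusted p = 0.882). G6pdx, which encodes glucose-6-phosphate dehydrogenase, was not read in Ctrl and had 17 reads in AZ20 replicate 1 and 0 in replicate 2. Its intronless autosomal relative G6pd2 was at 0 TPM in both Ctrl libraries and at 0.337 and 0.0466 TPM in AZ20. Unlike the PGK and pyruvate dehydrogenase pairs, this pair was near 0 on both sides. Exons shared with a neighbouring gene make up 16.1% of the exonic bases of Pdha1 (shared with Map3k15) and 13.6% of those of G6pdx (shared with Ikbkg), and how such reads were assigned is not given in the sources used here. Pdk3, an inhibitory kinase of pyruvate dehydrogenase, was at 0.644 and 0.0433 TPM in Ctrl, on 13 and 1 reads, and at 2.34 and 1.49 TPM in AZ20, on 68 and 39 reads. Its log2 change of 1.14 was not called (limma adjusted p = 0.391, and 0.0817 with the replicate block). Pdk3 passed the filter only through AZ20, the condition in which it was higher. Pfkfb1, which makes the activator of phosphofructokinase and was named after its values were seen, was at 0 TPM in Ctrl and had 14 and 2 reads under AZ20. Of these 5 X-linked genes, Pgk1 and Pdk3 were tested and 0 were called. Among all X-linked genes tested 63.3% were called higher, and 81.8% with the replicate block. For X-linked genes with a mean above 1 TPM in Ctrl, which Pgk1 had and Pdk3 had not, the limma share was 43.4%.

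Gapdhs and Pgk2 varied with the replicate number more than with the treatment. Gapdhs was 2.13 times as high in replicate 1 as in replicate 2 in Ctrl and 2.33 times in AZ20, and Pgk2 was 1.64 and 1.48 times as high. Round spermatid markers varied in the same way. The median ratio of replicate 1 to replicate 2 over the 7 markers was 2.36 in Ctrl (1.63 to 4.37) and 2.79 in AZ20 (0.964 to 3.47), and 6 of the 7 were higher in replicate 1 in both conditions. Over the 10 pachytene markers the medians were 1.03 (0.787 to 2.57) and 0.981 (0.683 to 2.65), and 4 of the 10 were higher in replicate 1 in both conditions. Among these, Pou5f2 (2.57 in Ctrl and 1.41 in AZ20) and Ccna1 (1.17 and 2.65) had the largest ratios. Tnp2, a transition protein of spermatid chromatin, was at 191 and 81.0 TPM in Ctrl and at 426 and 123 TPM in AZ20. The spermatid markers were also higher in AZ20, with positive changes for 7 of 7 and a median log2 change of 0.87. Of these, 0 were called with limma and 0 had an unadjusted p under 0.05. Prm1 and Txndc8 were called with the replicate block, against 1.58% of autosomal genes tested. In that fit Tnp1 (limma adjusted p = 0.0279) and Tnp2 (adjusted p = 0.00766) also passed 0.05, at changes under 2-fold. Gapdhs did not move with the spermatid markers between conditions, at -0.13. The part of spermatid RNA in the levels of Gapdhs and Pgk2 was not tested. Ldhc, with ratios of 1.04 and 1.18, and Ldha, with 1.06 and 0.970, differed little between replicates.

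**Figure D4:**
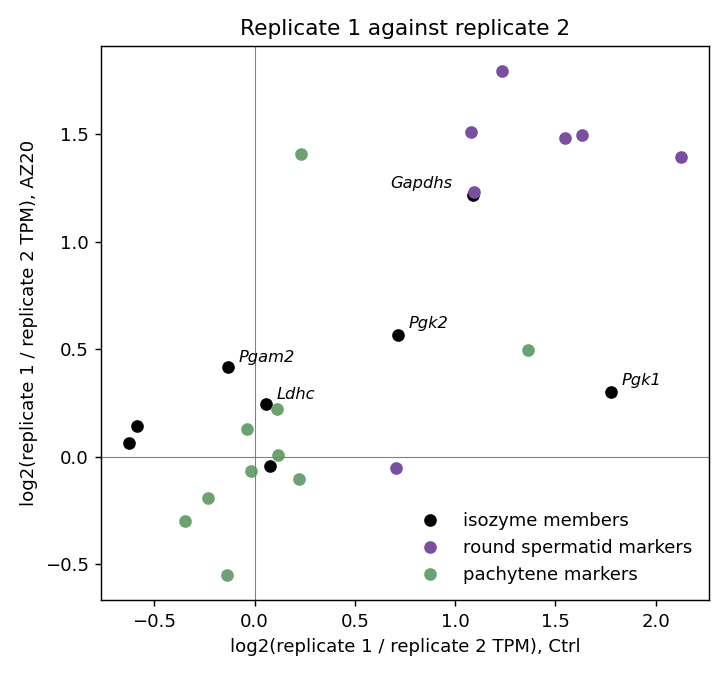
Log2 ratio of replicate 1 to replicate 2 in Ctrl (horizontal) and in AZ20 (vertical) for the 8 members above 0 in every library, 7 round spermatid markers and 10 pachytene markers (1 point per gene). Gapdhs lies among the spermatid markers and Pgk2 between them and the pachytene markers, most of which lie near 0.

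By the distance of log2(TPM + 1) over the 4 libraries, the genes most like Pgk1 were Ano5 (distance 0.198), Anxa3 (0.246) and Ttc23l (0.250). These 3 genes are autosomal. For Pgk2 they were Taf10 (0.257), 1700001G11Rik (0.262) and 1700026L06Rik (0.275). With 4 libraries this is a likeness of level and of replicate difference, and nothing more was read from it.

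The members were set beside the rest of the pathway. Summed over the genes of a step, LDH was the highest at 6707 ± 107 TPM (SD, n = 2) in Ctrl, followed by PGAM (1332 ± 87.6 TPM), triosephosphate isomerase, which is Tpi1 alone (256 ± 58.2 TPM), and PGK (97.9 ± 34.1 TPM). Enolase (40.9 ± 1.94 TPM), phosphofructokinase (35.4 ± 8.53 TPM), GAPDH (23.3 ± 0.507 TPM) and aldolase (15.4 ± 1.94 TPM) were lower. Hexokinase (5.06 ± 0.954 TPM), pyruvate kinase (3.06 ± 0.415 TPM) and glucose-6-phosphate isomerase (1.90 ± 0.920 TPM) were the lowest. These sums rest on unique alignments, so reads lost to copies may change the order. Copies were not searched for Tpi1, Pkm, Gpi1 or the hexokinase and phosphofructokinase genes. Eno3, the muscle form, held 52.2% to 62.7% of the enolase step across libraries. Nearly all of the rest was Eno4, at 15.2 and 20.0 TPM in Ctrl and at 23.8 and 16.9 TPM in AZ20. Ldhal6b, a further intronless LDH gene on chromosome 17, was at 358 and 456 TPM in Ctrl and at 450 and 280 TPM in AZ20. All 1445 of its exonic bases (100%) are shared with Gm29050 in GENCODE, so that the reads of these genes cannot be told apart, and both the level of Ldhal6b and the share below rest on their assignment to it. With Ldhal6b counted as well, Ldhc made up 89.3% and 87.9% of LDH transcripts in Ctrl and 88.7% and 89.2% in AZ20.

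**Figure D5:**
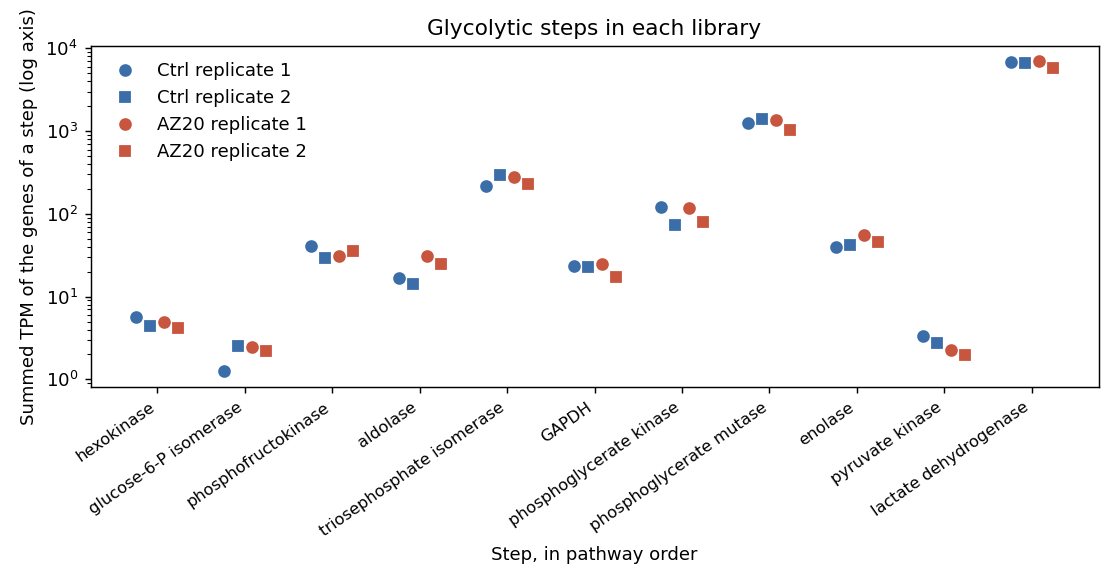
Summed TPM of the genes of each glycolytic step in each library, on a log axis, with steps in pathway order (GAPDH, glyceraldehyde-3-phosphate dehydrogenase). LDH and PGAM lie highest in all 4 libraries, and aldolase shows the largest distance between the conditions.

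Of the 55 other listed genes of glycolysis, transport of glucose and lactate, regulation of flux and pyruvate dehydrogenase, with G6pdx and G6pd2 counted among them, 53 were in the table and 29 were tested. Of these 29, 0 were called with limma in either direction, 0 with the replicate block, and 4 had an unadjusted p under 0.05. Of the 28 autosomal genes among them 3 had such a p, as did 6.34% of all autosomal genes tested. The median log2 change of the 29 was -0.01. Of the 4, which were named after their values were seen except for Bsg, Pdk3 and Pfkfb2, 3 had positive changes. Pdk3, which passed the filter only through AZ20, is among these 3. Aldoa, the aldolase of most tissues, was at 14.2 and 13.3 TPM in Ctrl and at 27.0 and 22.3 TPM in AZ20 (log2 change 0.79, limma adjusted p = 0.232, and 0.0640 with the replicate block). Pfkfb2, which makes the activator of phosphofructokinase, was at 8.43 and 6.67 TPM in Ctrl and at 12.3 and 16.3 TPM in AZ20 (log2 change 0.84, adjusted p = 0.321). Bsg, the membrane partner of lactate transporters, was at 563 and 822 TPM in Ctrl and at 511 and 440 TPM in AZ20 (log2 change -0.52, adjusted p = 0.511).

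Within the lists, 12 genes of glycolysis were tested, 5 with positive and 7 with negative changes, from Pkm at -0.38 to Aldoart2, a retroposed testis aldolase, at 0.82. Tpi1 and Ldhal6b, the most abundant of them in Ctrl, were at -0.01 and -0.19. All 6 tested transport genes had negative changes, from Bsg at -0.52 to Slc2a3, a glucose transporter of germ cells, at -0.06. Of 6 tested regulators of flux 5 had positive changes, from Pdk2, another pyruvate dehydrogenase kinase, at -0.02 to Pdk3. Among the genes with positive changes, Aldoart2, Pdk3 and a further such kinase, Pdk1, passed the filter only through AZ20. That selection favours a positive change. Of 5 tested genes of pyruvate dehydrogenase 3 had positive changes, from Pdhx at -0.08 to Pdhb at 0.34, with Dld at -0.06. None of these 4 lists had a called gene with limma. The smallest adjusted p in them was that of Aldoa.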

How the data were processed

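RNA-seq was done on 4 libraries of cultured pachytene spermatocytes, 2 Ctrl and 2 AZ20. Per the labels and the methods, the authors used Trimmomatic 0.39 for trimming and STAR 2.5.4b for alignment to GRCm38, keeping unique alignments, counted them on refGene genes with featureCounts 2.0.1 and deposited TPM computed from the counts. Each deposited TPM column sums to 1000000. The 92 blank lines of the table were left out.

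TPM gives no depth, but 1 length per gene holds for all columns, so the reads of all 16857 genes above 0 could be recovered as whole numbers up to a common factor. For listed genes the factor was set so that the implied length came within 5% of a full coding transcript of GENCODE M21 (13 genes above 1). Totals use the smallest whole numbers and are lower bounds. Genes were placed by GENCODE (21777), RefSeq symbol (211) or RefSeq synonym (1305), and 127 were not placed.

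Because the deposited unit is TPM, limma 3.58.1 in R 4.3.3 was run on log2(TPM + 1), with a variance trend, over the 10316 genes whose mean exceeded 1 TPM in at least 1 condition, in place of the authors' DESeq2. This scale understates changes of low genes. P-values were adjusted by Benjamini-Hochberg over all genes tested. Isozyme shares were compared with exact permutation tests in scipy 1.17.1 and Python 3.11.15. Near-identical copies were searched with blastn 2.17.0.

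Replicate numbers pair the libraries, since by the methods each mouse was split between conditions. The difference between replicates 1 and 2 correlated between conditions across the 10316 genes (0.229). The number was used as a block only as an alternative. The members, gene lists and tests were chosen with earlier results of these data known. The text names the members, X-linked and autosomal partners, called genes of the lists, their 2 most abundant genes and the highest and lowest change of each list, and the 3 genes nearest to Pgk1 and Pgk2. Others were named after their values were seen. Alternatives were other pseudocounts, filters and scalings, no trend, the block, and leaving out each library. An alternative added after the data were seen counted Ldhal6b as an LDH gene.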

Additional observations from a re-analysis of the deposited data

How the results depend on the processing

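Of the members and other pathway genes that an alternative tested, 0 were called with limma under each of the 12 alternatives run. A required mean above 5 TPM left 6 of the 8 members, without Pgk1 and Pgam1, and 20 of the 29 other genes. Of the 94 changes of members under these alternatives 84 kept their direction and 10 were reversed. The other filters, the replicate block and the fit without a trend leave the change of a member as it was. Such values are counted among the 84 and could not have been reversed. With quantile normalization, which placed the median of all genes at -0.07 instead of 0.07, the log2 change of Ldhc was 0.025 and that of Pgk2 was -0.062, and those of Gapdh, Gapdhs and Pgam1 were -0.28, -0.34 and -0.34. The number of all genes called was 240, and 447 with the replicate block, which changed no call of a member. With 1 library left out, 0 to 185 genes were called, with 0 without either AZ20 library, and the changes ranged from -0.40 to 0.15 for Gapdh, from -0.67 to 0.40 for Gapdhs, from -0.19 to 0.057 for Ldhc, from -0.35 to 0.17 for Pgam1, from -0.37 to 0.046 for Pgam2, from -0.35 to 0.35 for Pgk2 and from 0.06 to 0.94 for Pgk1. The differences in share ranged from -14.3 to 12.3 percentage points for Gapdhs, from -0.587 to 0.493 for Ldhc, from -0.0709 to 0.0468 for Pgam2 and from -1.30 to -0.530 for Pgk2. The replicate block leaves a difference in share unchanged, as for Pgk2 (-0.915). With Ldhal6b among the LDH genes the Ldhc difference was 0.376 in place of -0.0469. A library left alone in its condition was assumed to vary like the others. Depth limits Ldhb, Eno1 and Pgk1 most, and 2 libraries against 2 limit every permutation test.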
